A study of Mus musculus with 24 samples.

Results

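The p53 pathway genes are described here in unloaded hind limb muscle of Nfkb1-/-, Bcl3-/- and wild type mice. They are 10 genes taken by name: Trp53 itself, the cell cycle regulators Cdkn1a, Ccng1 and Mdm2, the apoptosis genes Bax, Bbc3, Perp and Trp53inp1, the Akt inhibitor gene Phlda3 and the stress sensor gene Sesn1. Their members on the array were the probe sets whose annotation named that gene alone, with no threshold on a measured value. The genes were chosen with earlier results of these data known. Of the 10 genes, 8 had such a probe set, among 12393 genes that had one, with 15 of the 22626 probe sets on the array after controls were left out. The annotation used listed no probe set for Trp53 or Bax, so neither gene is described by its level. This does not show that the array lacks one. All 15 probe sets passed the filter on low values (intensity above 20 on at least 4 of the 24 arrays), as did 19294 probe sets in all. For 3 of the 15 this was through the Bcl3-/- arrays alone, namely the probe set of Bbc3, that of Perp and 1416927_at of Trp53inp1, which never exceeded 20 on the 16 other arrays.

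The study asked which genes of atrophying muscle depend on p50, the product of Nfkb1, and on its co-activator Bcl-3. Total RNA of gastrocnemius and plantaris muscles of 24 male mice, 6 weeks of age, was hybridised to Affymetrix mouse 3′ expression arrays, with 4 arrays per group labelled as biological replicates. The 6 groups were hind limb unloaded (HU) for 6 days or left weight bearing (WB), in Nfkb1-/- (B6;129P2-Nfkb1tm1Bal/J), Bcl3-/- (FVB;129P2-Bcl3tm1Ver/J) and wild type (B6129PF2/J) mice. Both knockout strains lack the gene in the whole animal, and they differ from wild type and from each other in strain background. The deletions could not be read with the annotation used. It listed no probe set for Nfkb1, which does not show that the array lacks one. The Bcl3 probe set was dim on every array, at 42.5 to 56.6 in Bcl3-/- muscle, the 34.2 to 41.0 percentile of its array. In Nfkb1-/- and wild type muscle it was at 4.54 to 7.34, the 28.8 to 41.7 percentile. All 8 skeletal muscle fibre markers (Acta1, Ckm, Myh4 and others) were measured above 20. Their summed intensity was 45247 to 46856 in HU and 47827 to 48888 in WB Nfkb1-/- muscle, without overlap. It was 47504 to 49866 in HU and 47159 to 48393 in WB wild type muscle. On the Bcl3-/- arrays, which are on another scale, it was 136960 to 139278 in HU and 129998 to 140470 in WB mice. No fibre marker was called by limma between HU and WB in any genotype.

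The p53 protein is a transcription factor that is kept low by Mdm2, an E3 ubiquitin ligase and itself a p53 target. When DNA damage, nutrient stress or other signals stabilise p53, it binds paired decamer motifs near its targets and raises genes for cell cycle arrest, apoptosis and antioxidant defence. In skeletal muscle, Cdkn1a, which encodes the cyclin dependent kinase inhibitor p21, is known as a gene that rises with denervation and disuse. The target genes also answer to other factors, so their mRNA levels do not by themselves report p53 activity.

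The arrays fell into 2 sets on different scales. The 8 Bcl3-/- arrays had median intensities of 81.1 to 86.8 and the 16 Nfkb1-/- and wild type arrays had medians of 11.6 to 11.9, a ratio of 7.26 between the mean medians. Levels in Bcl3-/- muscle are therefore given beside the others without a comparison, because array set, strain and genotype cannot be told apart. Changes between HU and WB within a genotype, and differences between such changes, were compared. The fibre marker sum of HU mice was 136960 to 139278 in Bcl3-/- and 47504 to 49866 in wild type muscle. Bright probe sets thus did not differ by the ratio of 7.26, and a log2 change need not mean the same in both array sets. Response differences that involve Bcl3-/- muscle therefore also cannot be told apart from array set and strain. In bulk muscle, fewer cells of a type and less RNA per cell cannot be told apart.

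The promoters of most members carry letters that p53 is known to bind, and those of Cdkn1a, Ccng1 and Sesn1 are shown because the changes in Nfkb1-/- muscle turn on these 3 genes. RefSeq promoters (GRCm38.p6, 250 bases before to 50 after the start site) matched 8 of the 10 genes with 12 promoters, and none was listed for Perp or Trp53inp1. On either strand, 6 of the 8 genes (Cdkn1a, Ccng1, Mdm2, Sesn1, Trp53 and Bax) had a perfect match to the p53 decamer motif, in 6 of the 12 promoters, and 8.36% of all 32851 promoters held one. Capitals mark these matches, and each sequence runs 5′ to 3′ along the strand of its gene.
Cdkn1a, chr17:29090729-29091028, plus strand: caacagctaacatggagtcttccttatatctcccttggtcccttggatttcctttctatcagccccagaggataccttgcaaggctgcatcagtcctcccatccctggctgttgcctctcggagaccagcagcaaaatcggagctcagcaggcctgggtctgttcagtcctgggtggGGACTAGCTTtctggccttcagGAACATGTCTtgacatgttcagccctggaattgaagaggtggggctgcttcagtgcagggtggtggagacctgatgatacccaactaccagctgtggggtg
Ccng1, chr11:40755237-40755536, minus strand: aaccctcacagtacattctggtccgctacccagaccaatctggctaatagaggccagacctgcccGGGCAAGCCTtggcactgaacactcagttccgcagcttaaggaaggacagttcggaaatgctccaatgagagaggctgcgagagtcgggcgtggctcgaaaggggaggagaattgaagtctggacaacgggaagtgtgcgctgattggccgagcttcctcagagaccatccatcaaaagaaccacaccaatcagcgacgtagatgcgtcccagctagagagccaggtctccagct
Sesn1, chr10:41887189-41887488, plus strand: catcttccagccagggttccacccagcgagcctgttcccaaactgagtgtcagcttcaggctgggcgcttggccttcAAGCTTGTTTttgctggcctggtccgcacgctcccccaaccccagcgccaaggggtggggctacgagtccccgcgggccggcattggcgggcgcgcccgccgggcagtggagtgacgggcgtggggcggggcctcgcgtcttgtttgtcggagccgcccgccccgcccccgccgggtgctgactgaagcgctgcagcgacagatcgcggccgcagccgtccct

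Of the 2 Cdkn1a promoters, the printed one held 2 decamer matches, GGACTAGCTT starting 73 bases and GAACATGTCT starting 51 bases before the start site, and the other held none. The 10 bases that follow the match at 51 met the motif at 9 of 10 positions, so that the letters form an adjacent pair with 1 mismatch. In Ccng1 the match, GGGCAAGCCT, began 185 bases before the start site, and the 10 bases before it met the motif at 9 of 10 positions. In Sesn1, AAGCTTGTTT began 173 bases before the start site, and its better flank met 7 of 10 positions, and the other Sesn1 promoter held no match. Mdm2 had GAACTTGCCT at 186, Bax AGGCAAGCTT at 201 and Trp53 GGACTTGCCC at 75 bases before the start site, and the promoter of Phlda3 and the 3 of Bbc3 had no match. The κB consensus, to which p50 dimers bind, was matched in Trp53 (GGGACTTTCC, 5 bases before the start site) and Bbc3 (GGGAAACCCC, 137 bases before it), and in 8.46% of all promoters. A match is a description of these letters and not a measured binding site.

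The members that passed the test lay in both directions in unloaded Nfkb1-/- muscle. Tested with limma over all 19294 probe sets (adjusted p under 0.05), 4 of the 15 member probe sets were higher and 3 lower in HU than in WB Nfkb1-/- muscle, where 4.79% of all probe sets were called higher and 6.59% lower. These calls came from 3 of the 8 genes, namely Cdkn1a, Sesn1 and Ccng1. In Bcl3-/- muscle 1 was higher and none lower, where 7.59% of all probe sets were higher and 2.81% lower (73% of these calls were higher, and 58.6% were after a second quantile normalization). Wild type muscle had 2 lower, both of Ccng1, and none higher, where 2.31% of all probe sets were higher and 1.66% lower. At an unadjusted p under 0.05 the counts were 10, 3 and 3 of the 15 in Nfkb1-/-, Bcl3-/- and wild type muscle, where 24.3%, 26.1% and 18% of all probe sets were. The estimate was above 0 for 12, 10 and 8 of the 15, where 49.7%, 53.6% and 48.0% of all probe sets were, and the 3 probe sets below 0 in Nfkb1-/- muscle were those of Ccng1. Probe sets of 1 gene correlated at r = 0.72 to 0.97 over the 16 Nfkb1-/- and wild type arrays, so these are not counts of separate genes. The median log2 change (HU minus WB) of the 15 probe sets was 0.33 in Nfkb1-/-, 0.14 in Bcl3-/- and 0.04 in wild type muscle, and none of the medians over all probe sets was beyond 0.02.

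**Figure D1:**
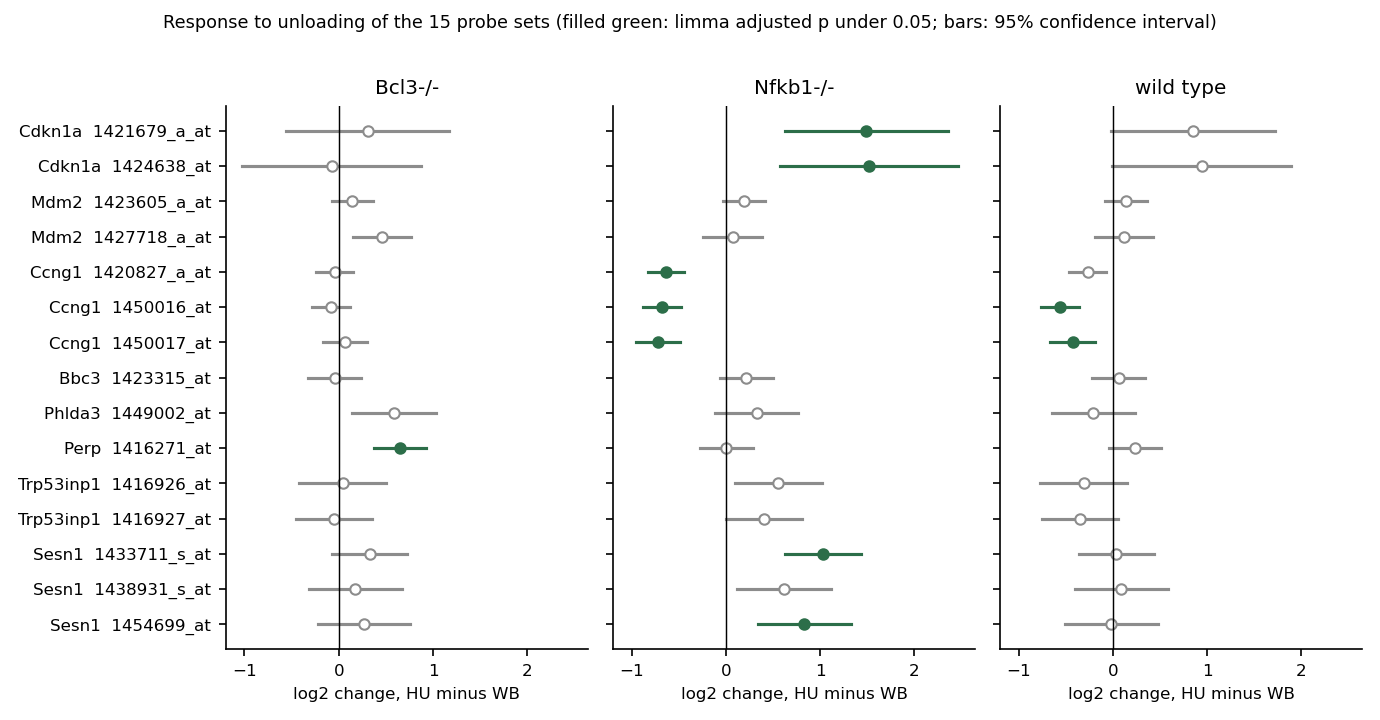
Log2 change, HU minus WB, of the 15 member probe sets (rows) in Bcl3-/-, Nfkb1-/- and wild type muscle (panels); points are limma estimates from 4 HU and 4 WB arrays, bars are 95% confidence intervals, and filled green points passed the test. Perp is the single filled point in Bcl3-/- muscle, Cdkn1a and Sesn1 lie above 0 in Nfkb1-/- muscle, and Ccng1 lies below 0 in Nfkb1-/- and wild type muscle.

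Cdkn1a, on chromosome 17, was measured by 2 probe sets and was higher in unloaded Nfkb1-/- muscle with both. With 1424638_at its intensities in replicates 1 to 4 were 195, 158, 303 and 239 in HU and 79.2, 114, 99.4 and 36.6 in WB Nfkb1-/- muscle. All 4 unloaded Nfkb1-/- mice were thus above all 4 weight bearing ones, and the log2 change was 1.52 ± 0.46 (SE), or 2.87-fold (limma adjusted p = 0.032). The other probe set, 1421679_a_at, gave 34.9, 31.8, 46.6 and 45.0 in HU and 14.2, 17.5, 17.4 and 8.63 in WB Nfkb1-/- muscle, a log2 change of 1.49 ± 0.42, or 2.81-fold (limma adjusted p = 0.022). Its WB Nfkb1-/- values were all below 20, and it exceeded 20 on 9 of the 16 Nfkb1-/- and wild type arrays. The size of its change therefore rests in part on values near background. The groups did not overlap with this probe set either. Such a separation of 4 against 4 arrays fixes the exact two-sided permutation p at 0.0286, the smallest it allows, so that test adds nothing to it. With log2 of the intensity plus 16 both calls were lost (log2 change 1.33, limma adjusted p = 0.072, for 1424638_at and 0.87, adjusted p = 0.15, for 1421679_a_at), and with a variance trend and robust estimation that of 1424638_at was (adjusted p = 0.067). In the fits without 1 array the call was lost for both probe sets without Nfkb1-/- HU replicate 3 (log2 change 1.36 for 1424638_at and 1.41 for 1421679_a_at) or WB replicate 4 (1.17 and 1.26), and for 1424638_at also without HU replicate 4 or WB replicate 1 (1.48 and 1.54).

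In Bcl3-/- muscle Cdkn1a 1424638_at gave 883, 1488, 1560 and 286 in HU and 944, 1238, 973 and 636 in WB mice, so that the highest and the lowest arrays were both unloaded. The log2 change was −0.08 ± 0.46 with this probe set and 0.31 ± 0.42 with 1421679_a_at (limma adjusted p = 0.94 and 0.70), and without HU replicate 4 the changes were 0.46 and 0.78. The wild type mice had 1424638_at intensities of 365, 75.1, 173 and 173 in HU and 103, 129, 54.5 and 83.5 in WB mice. The groups overlapped: HU replicate 2 was below 3 of the WB mice, and HU replicate 1 was the highest array of both groups. The log2 changes of 0.94 ± 0.46 (95% interval −0.01 to 1.89) with 1424638_at and 0.85 ± 0.42 (−0.02 to 1.72) with 1421679_a_at did not pass the test (limma adjusted p = 0.28 and 0.29). Without wild type HU replicate 1 these 2 changes were 0.57 and 0.54, and without HU replicate 2 they were 1.33 and 1.28.

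No difference in the Cdkn1a response between genotypes passed the test. The response of Nfkb1-/- minus that of wild type was 0.58 with 1424638_at (95% interval −0.76 to 1.92) and 0.64 with 1421679_a_at (−0.58 to 1.87), with limma adjusted p = 0.77 and 0.71. The response of Bcl3-/- minus that of wild type was −1.02 (−2.35 to 0.32) and −0.54 (−1.77 to 0.68), with limma adjusted p = 0.53 and 0.76. The intervals are wide, so neither likeness nor difference of the genotypes was shown. Averaged over the 3 genotypes, Cdkn1a was 1.84-fold higher in HU than in WB muscle with 1421679_a_at (limma adjusted p = 0.010) and 1.73-fold with 1424638_at (adjusted p = 0.034). The second of these calls was lost in 7 of the 24 fits without 1 array (without Nfkb1-/- HU replicate 3 or WB replicate 4, Bcl3-/- HU replicate 2 or 3 or WB replicate 4, or wild type HU replicate 1 or WB replicate 3), where its log2 change was 0.67 at the lowest. It was also lost with a variance trend and robust estimation (limma adjusted p = 0.068) and with log2 of the intensity plus 16 (adjusted p = 0.056). In that mean 4 member probe sets were higher and 3 lower, from 4 of the 8 genes, where 12.6% of all probe sets were higher and 8.54% lower.

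**Figure D2:**
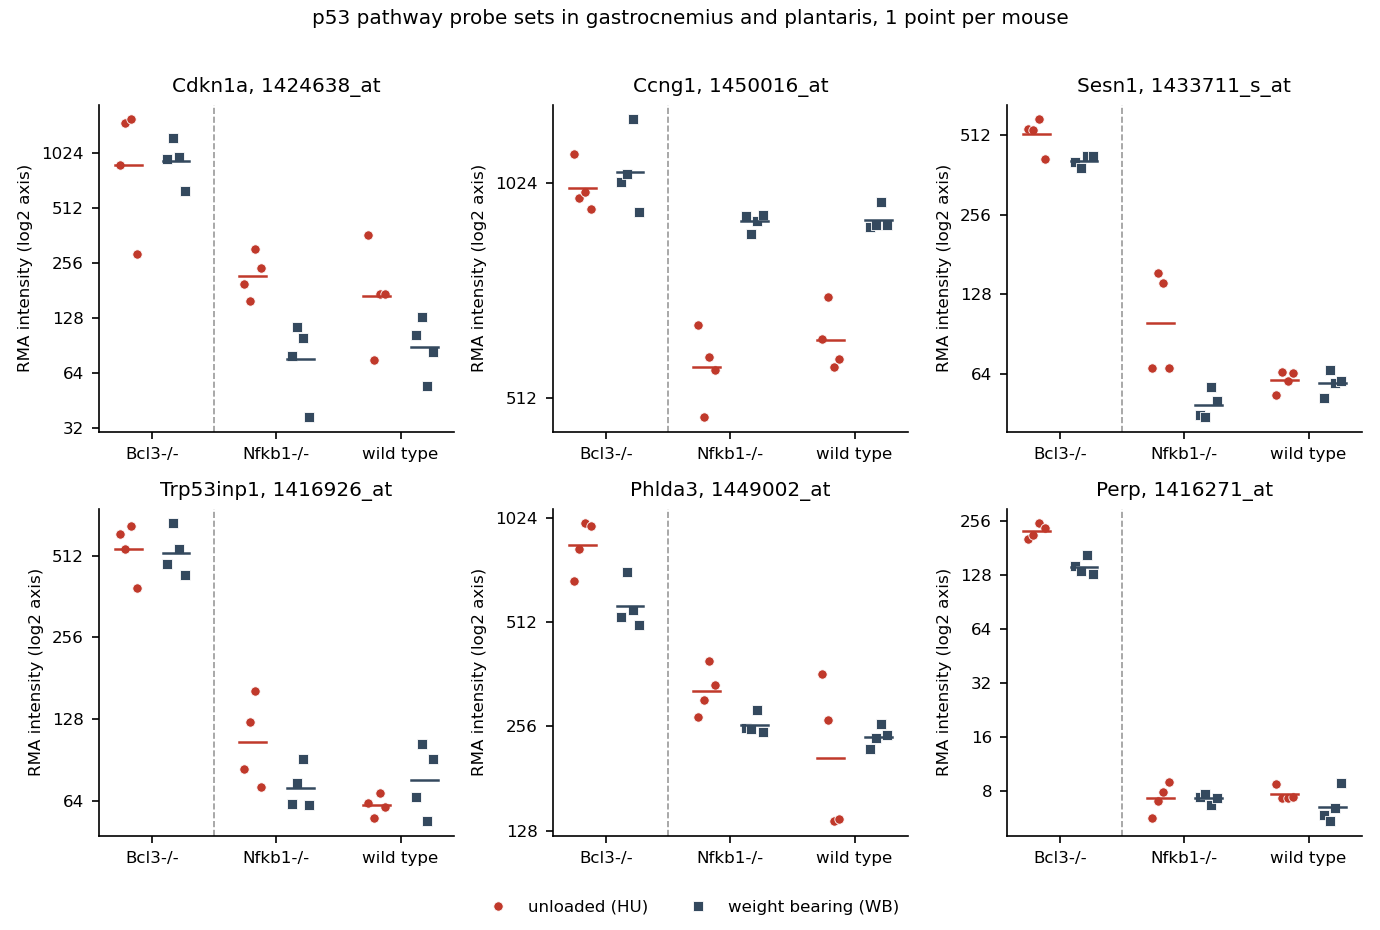
RMA intensity on a log2 axis of 6 member probe sets on each of the 24 arrays, with unloaded (red circles) left of weight bearing (dark squares) within each genotype and bars at the geometric mean of 4 arrays; the dashed line separates the Bcl3-/- arrays, which are on another scale. HU and WB arrays separate for Perp in Bcl3-/- muscle and for Cdkn1a and Sesn1 in Nfkb1-/- muscle. They also separate for Ccng1 in Nfkb1-/- and wild type muscle. For Sesn1, 2 of the 4 unloaded Nfkb1-/- mice stand above the other 2.

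Ccng1, on chromosome 11, encodes cyclin G1, which recruits protein phosphatase 2A to Mdm2 and is a long-known p53 target. It was lower in unloaded muscle of Nfkb1-/- and wild type mice. Its 3 probe sets were near the top of the arrays, with group means at the 90.9 to 98.9 percentile in Bcl3-/- muscle and the 96.4 to 99.3 percentile in Nfkb1-/- and wild type muscle. With 1450016_at the intensities were 649, 481, 584 and 560 in HU and 922, 870, 907 and 923 in WB Nfkb1-/- muscle. They were 620, 710, 565 and 581 in HU and 889, 894, 963 and 895 in WB wild type muscle. In both genotypes every unloaded mouse was below every weight bearing mouse.

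The Ccng1 changes were modest in size, with narrow errors. With 1450016_at the log2 change was −0.68 ± 0.10 in Nfkb1-/- muscle, a level of 0.624 times that in WB mice (limma adjusted p = 0.00015), and −0.56 ± 0.10 in wild type muscle, 0.678 times (adjusted p = 0.0020). With 1450017_at the changes were −0.72 ± 0.11 in Nfkb1-/- (limma adjusted p = 0.00033) and −0.43 ± 0.11 in wild type muscle (adjusted p = 0.031). The third probe set, 1420827_a_at, fell in Nfkb1-/- muscle (−0.64 ± 0.10, limma adjusted p = 0.00020), and its change of −0.27 ± 0.10 in wild type muscle did not pass the test (adjusted p = 0.12). In the fits without each of the 24 arrays in turn, the 3 Nfkb1-/- calls and the wild type call of 1450016_at were kept in all 24. The wild type call of 1450017_at was lost in 5 of them (without HU replicate 3 or 4, or WB replicate 1, 2 or 3), with changes of −0.49 to −0.38 over all 24.

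In Bcl3-/- muscle the Ccng1 levels of the groups overlapped. With 1450016_at they were 1124, 977, 994 and 941 in HU and 1030, 1055, 1258 and 934 in WB mice. The log2 changes of the 3 probe sets lay between −0.08 and 0.07, each with an SE of 0.10 or 0.11, and no limma adjusted p was below 0.66. The response of Bcl3-/- minus that of wild type was 0.48 (95% interval 0.20 to 0.77, limma adjusted p = 0.093) with 1450016_at, 0.50 (0.17 to 0.83, adjusted p = 0.15) with 1450017_at and 0.23 (−0.05 to 0.50, adjusted p = 0.49) with 1420827_a_at. The first of these Ccng1 differences passed without Bcl3-/- WB replicate 3 (0.56, adjusted p = 0.029). Of the 15 member probe sets, 4 (Ccng1 1450016_at and 1450017_at, Phlda3 and Perp) had an unadjusted p under 0.05 in that contrast and none passed adjustment, where 13.6% and 1.07% of all probe sets did. The response of Nfkb1-/- minus that of wild type was −0.12, −0.29 and −0.37 for 1450016_at, 1450017_at and 1420827_a_at, with limma adjusted p of 0.78, 0.48 and 0.26. The Ccng1 probe sets correlated at r = −0.17 to 0.49 over the 8 Bcl3-/- arrays and at r = 0.90 to 0.97 over the 16 Nfkb1-/- and wild type arrays, which is a description over arrays that share group and normalization.

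Sesn1, on chromosome 10, encodes sestrin 1, which restrains mTORC1 when leucine is scarce and protects against oxidative stress. It was higher in unloaded than in weight bearing muscle of Nfkb1-/- mice. With 1433711_s_at the intensities were 67.5, 154, 141 and 67.4 in HU and 44.9, 43.9, 57.3 and 50.6 in WB Nfkb1-/- muscle. Replicates 2 and 3 of the unloaded mice stood well above the other 2, and all 4 were above every weight bearing mouse. The log2 change was 1.03 ± 0.19, or 2.04-fold (limma adjusted p = 0.0013), and lay between 0.82 and 1.22 with each array left out, the call being kept in all 24 such fits. With 1454699_at the values were 64.1, 167, 166 and 61.7 in HU and 57.1, 46.9, 69.0 and 58.8 in WB mice, so that the same 2 mice were high and the other 2 lay within the weight bearing range. That change was 0.83 ± 0.24 (limma adjusted p = 0.023) and was lost in 5 of the 24 fits (without Nfkb1-/- HU replicate 2 or 3, or WB replicate 1, 2 or 4), with values of 0.60 to 1.08 over all 24. The remaining probe set, 1438931_s_at, gave 0.62 ± 0.24 (limma adjusted p = 0.10).

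In Bcl3-/- muscle Sesn1 1433711_s_at was at 540, 535, 587 and 416 in HU and 405, 386, 425 and 426 in WB mice, with HU replicate 4 inside the weight bearing range. The change there was 0.33 ± 0.19 (limma adjusted p = 0.29). The wild type mice had 53.2, 64.8, 60.0 and 64.7 in HU and 51.8, 66.1, 59.0 and 60.0 in WB mice. The log2 change was 0.04 ± 0.19 (95% interval −0.36 to 0.44, limma adjusted p = 0.96), and with 1454699_at and 1438931_s_at it was −0.02 and 0.09. The Sesn1 response of Nfkb1-/- minus that of wild type was 0.99 ± 0.27 (95% interval 0.43 to 1.56) with 1433711_s_at. Its limma adjusted p of 0.12 was the lowest among the 15 members, none of which passed in that contrast, where 0.176% of all probe sets did. An unadjusted p under 0.05 was found for 5 of the 15 probe sets, all of Ccng1, Sesn1 or Trp53inp1, where 12.3% of all probe sets had one. With 1454699_at the difference was 0.85 ± 0.34 (adjusted p = 0.30).

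Trp53inp1, on chromosome 4, encodes a stress induced protein of PML bodies that promotes apoptosis and autophagy, and its changes passed the test in no genotype. With 1416926_at its intensities were 84.0, 124, 162 and 72.0 in HU and 62.3, 74.5, 90.7 and 61.7 in WB Nfkb1-/- muscle, and replicates 2 and 3 were again the highest of the unloaded mice. They were 62.9, 55.2, 68.2 and 60.4 in HU and 66.1, 104, 53.8 and 91.2 in WB wild type muscle, with an overlap in both genotypes. The log2 changes were 0.56 ± 0.22 in Nfkb1-/- (limma adjusted p = 0.11), 0.04 ± 0.22 in Bcl3-/- (adjusted p = 0.92) and −0.31 ± 0.22 in wild type muscle (adjusted p = 0.52). The response of Nfkb1-/- minus that of wild type was 0.87 ± 0.32 (limma adjusted p = 0.26). The other probe set, 1416927_at, stayed at 5.92 to 18.8 on the Nfkb1-/- and wild type arrays and gave changes of 0.40, −0.05 and −0.35 in Nfkb1-/-, Bcl3-/- and wild type muscle, none of which passed the test.

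Within the unloaded condition, Sesn1 with 1433711_s_at and Trp53inp1 with both probe sets were higher in Nfkb1-/- than in wild type muscle. The other Sesn1 probe sets did not pass, at 0.73 ± 0.24 for 1454699_at and 0.59 ± 0.24 for 1438931_s_at on the log2 scale (limma adjusted p = 0.061 and 0.14). Of the 15 member probe sets, 3 were higher and none lower, from 2 of the 8 genes, where 2.74% of all probe sets were higher and 4.58% lower. The log2 differences (HU Nfkb1-/- minus HU wild type) were 0.77 ± 0.22 for Trp53inp1 1416926_at (limma adjusted p = 0.035), 0.65 ± 0.19 for Trp53inp1 1416927_at (adjusted p = 0.042) and 0.72 ± 0.19 for Sesn1 1433711_s_at (adjusted p = 0.023). Of these, 1416927_at never exceeded 20 on these arrays and was tested only because the Bcl3-/- arrays passed it, so that its call at 6.25 to 18.8 rests on values near background. For these 3 probe sets all 4 unloaded Nfkb1-/- mice were above all 4 unloaded wild type mice, as was the case for 4.35% of all probe sets. The fit of these groups alone called none of the 15, and so did the fit of all groups without Nfkb1-/- HU replicate 3. All 3 calls were also lost without wild type HU replicate 1. The Sesn1 call was also lost without Nfkb1-/- HU replicate 2, that of Trp53inp1 1416926_at without Nfkb1-/- HU replicate 2 or wild type HU replicate 2 or 4, and that of 1416927_at without Nfkb1-/- HU replicate 1, Bcl3-/- HU replicate 3 or wild type HU replicate 2, 3 or 4. Over the 24 fits the differences were 0.56 to 0.95, 0.35 to 0.83 and 0.51 to 0.91 for Trp53inp1 1416926_at, Trp53inp1 1416927_at and Sesn1. In the weight bearing condition none of the 15 passed and none had an unadjusted p under 0.05, where 0.902% of all probe sets passed and 7.85% had such a p, with log2 differences (WB Nfkb1-/- minus WB wild type) from −0.57 for Cdkn1a 1421679_a_at to 0.15 for Perp. These contrasts use the same arrays as the changes within the genotypes.

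Phlda3, on chromosome 1, encodes a pleckstrin homology domain protein that competes with Akt for membrane lipids. In Nfkb1-/- muscle its intensities were 272, 306, 396 and 338 in HU and 254, 252, 286 and 247 in WB mice, a log2 change of 0.33 ± 0.21 (limma adjusted p = 0.39). In Bcl3-/- muscle it was at 675, 832, 986 and 969 in HU and at 528, 715, 556 and 501 in WB mice. WB replicate 2 alone reached into the unloaded range there, and the change was 0.59 ± 0.21 (limma adjusted p = 0.080). The wild type values were 363, 268, 137 and 139 in HU and 220, 237, 259 and 241 in WB mice. The unloaded wild type mice lay on both sides of the weight bearing range, replicates 1 and 2 above it and replicates 3 and 4 below it, with a change of −0.21 ± 0.21 (limma adjusted p = 0.68).

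What passed for Phlda3 depended on wild type HU replicate 1 and on the processing. Without it the Bcl3-/- change, still 0.59, had a limma adjusted p of 0.028 through the shared estimate of the spread, the wild type change was −0.48 (adjusted p = 0.18), and the response of Bcl3-/- minus that of wild type was 1.06 (adjusted p = 0.049), against 0.79 (adjusted p = 0.23) with all arrays. The Phlda3 difference in the unloaded condition, Nfkb1-/- minus wild type, was 0.65 ± 0.21 with all arrays (limma adjusted p = 0.065) and 0.92 without that array (adjusted p = 0.0050). With that array kept, the Bcl3-/- change passed with only the groups compared fitted (limma adjusted p = 0.046) and with array weights (0.024). The unloaded difference then passed with a filter within each array set (limma adjusted p = 0.047), a second quantile normalization (0.038) or array weights (0.0030). It also passed without wild type HU replicate 2 (limma adjusted p = 0.044).

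Perp, on chromosome 10, a p53 target and desmosomal membrane protein, was the single member called in Bcl3-/- muscle. Its intensities were 204, 214, 249 and 235 in HU and 143, 135, 166 and 130 in WB Bcl3-/- muscle, and the groups did not overlap. The log2 change was 0.65 ± 0.13, or 1.57-fold (limma adjusted p = 0.0035), and the call was kept without each of the 24 arrays in turn. On the Nfkb1-/- and wild type arrays Perp stayed between 5.40 and 8.89, with changes of 0.01 ± 0.13 in Nfkb1-/- and 0.23 ± 0.13 in wild type muscle (limma adjusted p = 0.99 and 0.39). Its group means lay at the 61.3 and 69.6 percentile of the Bcl3-/- arrays and at the 38.2 to 42.1 percentile of the others. The response of Bcl3-/- minus that of wild type was 0.42 ± 0.19 (limma adjusted p = 0.32).

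Mdm2, on chromosome 10, completes the feedback loop, and neither of its 2 probe sets was called in any comparison, although some alternatives called them. With 1423605_a_at it was at 98.6, 100.0, 120 and 116 in HU and 91.2, 102, 98.0 and 87.8 in WB Nfkb1-/- muscle. In wild type muscle it was at 122, 86.7, 92.2 and 99.9 in HU and 88.1, 91.2, 85.0 and 97.5 in WB mice, with HU replicate 1 again the highest array. Its log2 changes were 0.19 ± 0.11, 0.14 ± 0.11 and 0.14 ± 0.11 in Nfkb1-/-, Bcl3-/- and wild type muscle, and the upper 95% bounds of these 3 changes were 0.41, 0.36 and 0.36. With 1427718_a_at Mdm2 was at 271, 215, 231 and 187 in HU and 167, 148, 204 and 139 in WB Bcl3-/- muscle, a change of 0.46 ± 0.15 that missed the threshold (limma adjusted p = 0.052) and passed it under 5 of the processing alternatives. In the mean of the 3 genotypes the Mdm2 changes were 0.16 ± 0.06 with 1423605_a_at and 0.22 ± 0.09 with 1427718_a_at (limma adjusted p = 0.070 and 0.082), and the first passed with a filter within each array set (adjusted p = 0.045). Bbc3, on chromosome 7, encodes the BH3-only protein Puma and was dim on the Nfkb1-/- and wild type arrays (8.95 to 14.5). The Bbc3 changes of 0.22, −0.04 and 0.06 in Nfkb1-/-, Bcl3-/- and wild type muscle had limma adjusted p of 0.36, 0.88 and 0.87.

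The separation of the mice can be read across the 15 probe sets. Every unloaded mouse was above every weight bearing mouse for 3 probe sets in Nfkb1-/- (both of Cdkn1a and Sesn1 1433711_s_at), 1 in Bcl3-/- (Perp) and none in wild type muscle, where 7.71%, 11.4% and 5.86% of all probe sets did so. Every unloaded mouse was below every weight bearing mouse for 3 probe sets in Nfkb1-/- (those of Ccng1), none in Bcl3-/- and 3 in wild type muscle (Ccng1 1450016_at and 1450017_at, and Trp53inp1 1416927_at, which was dim there at 6.25 to 9.27), where 10.9%, 4.07% and 4.89% of all probe sets did so.

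**Figure D3:**
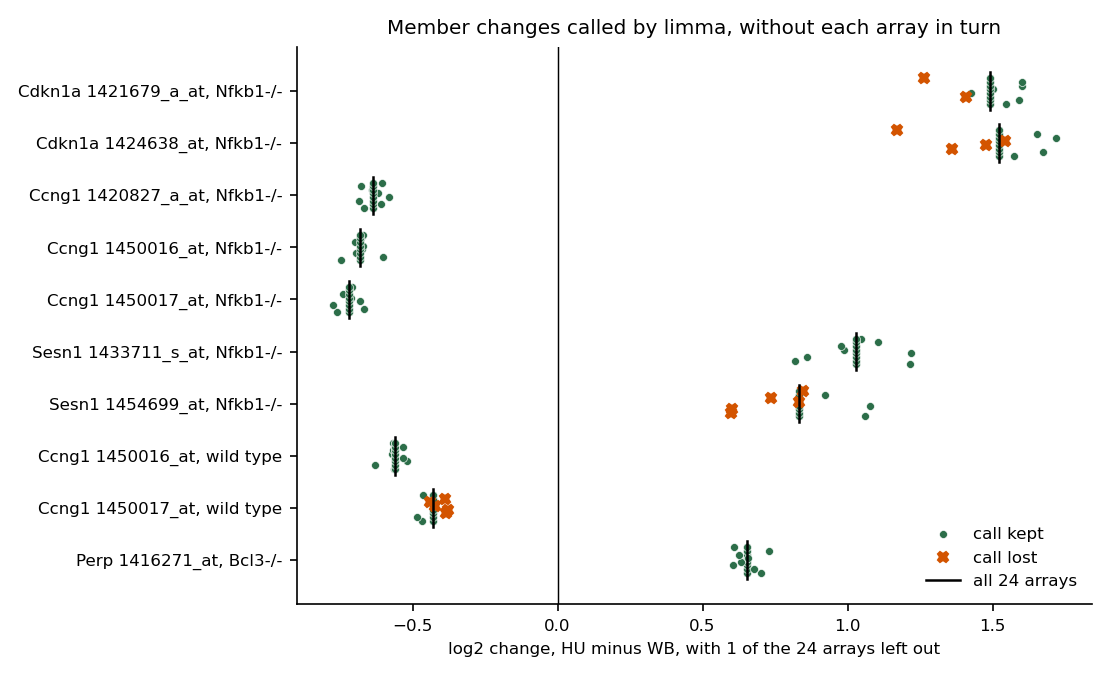
Log2 change, HU minus WB, of the 10 member changes called within a genotype, refitted with each of the 24 arrays left out; green points kept a limma adjusted p under 0.05, orange crosses lost it, and black bars give the value with all 24 arrays. The crosses fall on both Cdkn1a probe sets, Sesn1 1454699_at and the wild type change of Ccng1 1450017_at, and Cdkn1a 1424638_at has the widest range, from 1.17 to 1.72.

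Genes whose levels followed Cdkn1a most closely were sought among 5967 genes over the 16 Nfkb1-/- and wild type arrays, as a description. They were the ribosomal protein gene Rpl4 (r = 0.86), Aup1 (0.84), Mdm2 (0.84), Cpd (0.84) and Dapk1 (0.83). On the 8 Bcl3-/- arrays their correlations with Cdkn1a were −0.01, 0.32, −0.17, −0.12 and 0.75. Among the other members r with Cdkn1a over the 16 arrays was 0.43 for Sesn1, 0.42 for Trp53inp1, 0.24 for Phlda3 and −0.69 for Ccng1. After the means of the 4 groups were taken out, r was 0.81 for Mdm2, 0.43 for Trp53inp1, 0.21 for Phlda3, −0.13 for Sesn1 and −0.15 for Ccng1. The arrays share group, array set and normalization.

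The rest of the p53 network was read from 97 further genes in 7 lists, of which 84 had a listed probe set and 81 passed the filter, each through its brightest probe set. With the filter applied within each array set 45 genes were left. The rest of the 81, Prkdc and Plk3 among them, passed through the brighter Bcl3-/- arrays alone. In Nfkb1-/- muscle 7 of the 81 were higher and 6 lower in HU than in WB mice, where 5.22% of all 11098 genes were higher and 7.02% lower. In Bcl3-/- muscle 11 were higher and none lower, where 7.5% of all genes were higher and 2.99% lower. Wild type muscle had 3 higher and 1 lower, where 2.18% of all genes were higher and 1.75% lower. The median log2 changes of the 81 genes were 0.02, 0.05 and 0.05 in Nfkb1-/-, Bcl3-/- and wild type muscle, and none of the medians over all genes was beyond 0.02. In the mean of the 3 genotypes 21 of the 81 were higher and 6 lower, where 12.6% of all genes were higher and 9.2% lower. The lists were chosen with earlier results of these data known, so these counts are a description and not a test of the lists.

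Of the kinases that signal DNA damage to p53, Atm, which phosphorylates p53 and Mdm2 after double-strand breaks, was higher in unloaded wild type muscle. In Nfkb1-/- muscle Atm was at 6.90, 9.87, 7.32 and 6.48 in HU and 7.04, 6.61, 7.63 and 7.93 in WB mice (log2 change 0.05 ± 0.19, limma adjusted p = 0.92), and in Bcl3-/- muscle its change was 0.29 ± 0.19 (adjusted p = 0.34). Its wild type intensities were 25.7, 24.0, 25.4 and 25.6 in HU and 6.47, 11.4, 16.2 and 6.97 in WB mice. The 4 unloaded wild type mice were almost level and all above the weight bearing ones, with a change of 1.40 ± 0.19 (limma adjusted p = 0.00011) that kept its call without each array in turn. Of the 16 Nfkb1-/- and wild type arrays these 4 alone exceeded 20. The change therefore sets values just above the filter against values below it. Prkdc, the catalytic subunit of DNA-dependent protein kinase, was at 97.0, 94.1, 96.1 and 108 in HU and 72.9, 53.6, 84.6 and 56.7 in WB Bcl3-/- muscle (log2 change 0.59 ± 0.14, limma adjusted p = 0.011). These values lay around the medians of the Bcl3-/- arrays, 81.1 to 86.8, and Prkdc passed the filter through those arrays alone.

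The Atm response of Nfkb1-/- minus that of wild type was −1.35 ± 0.26 (limma adjusted p = 0.034) and that of Bcl3-/- minus that of wild type was −1.11 ± 0.26 (adjusted p = 0.037). Atm was the 1 listed gene of 81 called in each contrast, where 0.207% and 1.17% of all genes were, and both contrasts share the wild type arrays. Its probe set was dim, at 25.7 or below on the 16 Nfkb1-/- and wild type arrays. It exceeded 20 there in unloaded wild type muscle alone, and on these arrays it reached the filter only through that group. Neither call was made when only the groups compared were fitted. The Nfkb1-/- call was lost in 9 of the 24 fits without 1 array (Nfkb1-/- HU replicate 1 or 3 or WB replicate 1, 2 or 4, or wild type HU replicate 1 or 3 or WB replicate 1 or 4), with values of −1.60 to −1.16 over all 24. The Bcl3-/- call was lost in 13 (any Bcl3-/- HU replicate or WB replicate 1, 2 or 4, or any wild type HU replicate or WB replicate 1 or 4), with values of −1.37 to −0.93.

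Among the regulators of p53, Mdm4, the non-ligase partner of Mdm2, was at 49.0, 26.7, 35.1 and 33.2 in HU and 20.4, 24.7, 23.6 and 26.9 in WB wild type muscle. The groups overlapped through HU replicate 2, the log2 change was 0.56 ± 0.13 (limma adjusted p = 0.014), and the call was lost without HU replicate 1 (0.40) or WB replicate 1 (0.49). The Mdm4 changes of 0.37 in Nfkb1-/- and 0.30 in Bcl3-/- muscle did not pass (limma adjusted p = 0.065 and 0.14). Sirt1, a deacetylase that acts on p53, was at 22.4, 47.7, 41.2 and 23.3 in HU and 21.3, 19.1, 26.7 and 18.7 in WB Nfkb1-/- muscle, with replicates 2 and 3 of the unloaded mice high as for Sesn1. The same mice were the highest unloaded Nfkb1-/- mice for Plk2, Gadd45b, Ccng2, Gadd45a, Bcl2l11 and Igfbp3, described below. These rises therefore rest in part on the same arrays, while Cdkn1a was highest in replicates 3 and 4. The log2 changes of Sirt1 follow. They were 0.58 ± 0.19 in Nfkb1-/- (limma adjusted p = 0.048) and 0.65 ± 0.19 in Bcl3-/- muscle (adjusted p = 0.031), and the first was called in 6 and the second in 17 of the 24 fits without 1 array. The Nfkb1-/- call of Sirt1 was also lost without a filter, in the fit of only the groups compared, after centring, with log2 of the intensity plus 16 and in both forms of the methods' t-test. Trp53bp1, whose protein 53BP1 marks double-strand breaks, was at 24.0, 29.2, 27.4 and 24.3 in HU and 40.6, 37.7, 38.2 and 40.3 in WB Nfkb1-/- muscle, where it fell (−0.58 ± 0.13, limma adjusted p = 0.0038).

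The cell cycle list had called genes in both directions in Nfkb1-/- muscle, with 3 of its 17 genes higher and 3 lower, where 5.22% of all genes were higher and 7.02% lower. Plk2, a polo-like kinase, was at 32.4, 59.5, 53.1 and 37.7 in HU and 23.7, 16.7, 18.4 and 34.2 in WB Nfkb1-/- muscle, with a log2 change of 0.99 ± 0.22 (limma adjusted p = 0.0046). Gadd45b, a stress sensor of the Gadd45 family, changed by 0.94 ± 0.23 in Nfkb1-/- (limma adjusted p = 0.0093) and 1.01 ± 0.23 in Bcl3-/- muscle (adjusted p = 0.0079), and its value in wild type muscle was 0.73 ± 0.23 (adjusted p = 0.078). Ccng2, a paralogue of Ccng1, was at 62.8, 111, 102 and 57.9 in HU and 43.3, 38.0, 56.0 and 56.9 in WB Nfkb1-/- muscle (0.74 ± 0.18, limma adjusted p = 0.0092). The Ccng2 change in wild type muscle was 0.03 ± 0.18.

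The 3 cell cycle genes that fell in Nfkb1-/- muscle act in G1 phase. Ccnd1, cyclin D1, was at 10.7, 7.01, 4.34 and 17.9 in HU and 33.9, 30.2, 17.1 and 40.0 in WB Nfkb1-/- muscle (−1.72 ± 0.37, limma adjusted p = 0.0031). Its HU values there were all below 20, so the size of this change rests on values near background. Ccnd2, cyclin D2, fell in Nfkb1-/- (−0.78 ± 0.13, limma adjusted p = 0.00058) and wild type muscle (−0.58 ± 0.13, adjusted p = 0.012), and the wild type call was lost without HU replicate 3 (−0.52). Cdk4, their kinase partner, fell by 0.41 on the log2 scale in Nfkb1-/- muscle (limma adjusted p = 0.0076), and its wild type change was −0.02. The Cdk4 probe set, 1422441_x_at, is of a class whose probes can match other transcripts.

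Gadd45a, a p53-induced brake of the cell cycle, was chosen after its values were seen. It was at 45.7, 86.1, 78.5 and 57.7 in HU and 27.0, 24.1, 26.7 and 25.0 in WB Nfkb1-/- muscle, with no overlap. In wild type muscle it was at 385, 45.6, 39.4 and 31.5 in HU and 23.3, 31.4, 20.6 and 24.8 in WB mice, again with no overlap and with HU replicate 1 far above the others. The log2 changes were 1.34 ± 0.45 in Nfkb1-/- and 1.47 ± 0.45 in wild type muscle (limma adjusted p = 0.056 and 0.066), and the mean over the 3 genotypes passed (1.02 ± 0.26, adjusted p = 0.0061). Without wild type HU replicate 1 the changes were 1.34 (adjusted p = 5.3e-05) and 0.64 (adjusted p = 0.068). That array also had the highest Cdkn1a, Phlda3 and Mdm2 intensities of the wild type arrays.

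The apoptosis list had 20 tested genes, of which 1 was higher and 1 lower in Nfkb1-/-, 3 were higher in Bcl3-/- and 1 was higher in wild type muscle. Over all genes the shares were 5.22% higher and 7.02% lower in Nfkb1-/-, 7.5% higher in Bcl3-/- and 2.18% higher in wild type muscle. Aen, a p53-induced nuclease, was at 103, 94.3, 103 and 106 in HU and 73.9, 67.6, 79.0 and 81.7 in WB wild type muscle (0.43 ± 0.10, limma adjusted p = 0.012), a call that was lost without WB replicate 2 (0.38). Bcl2l11, which encodes the BH3-only protein Bim, was at 244, 242, 255 and 223 in HU and 142, 130, 167 and 174 in WB Bcl3-/- muscle. Its change was 0.66 ± 0.21 in Nfkb1-/- and in Bcl3-/- muscle (limma adjusted p = 0.040 and 0.042), calls that were kept in 19 and 17 of the 24 fits without 1 array. In the list of secreted and surface targets Igfbp3, which binds insulin-like growth factors, was at 24.4, 43.3, 43.1 and 22.3 in HU and 18.0, 14.4, 13.6 and 10.9 in WB Nfkb1-/- muscle (1.18 ± 0.23, limma adjusted p = 0.0015). The WB values of Igfbp3 there were all below 20, so the size of its change also rests on values near background. Ddit4, which encodes the mTORC1 inhibitor Redd1 and was also chosen after its values were seen, was at 71.9, 92.5, 309 and 46.1 in HU and 461, 472, 529 and 102 in WB Nfkb1-/- muscle. Its changes of −1.74 in Nfkb1-/-, −1.28 in Bcl3-/- and −0.93 in wild type muscle, each with an SE of 0.59, did not pass (limma adjusted p = 0.060, 0.17 and 0.45), and its mean over the 3 genotypes did (−1.31 ± 0.34, adjusted p = 0.0074).

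**Figure D4:**
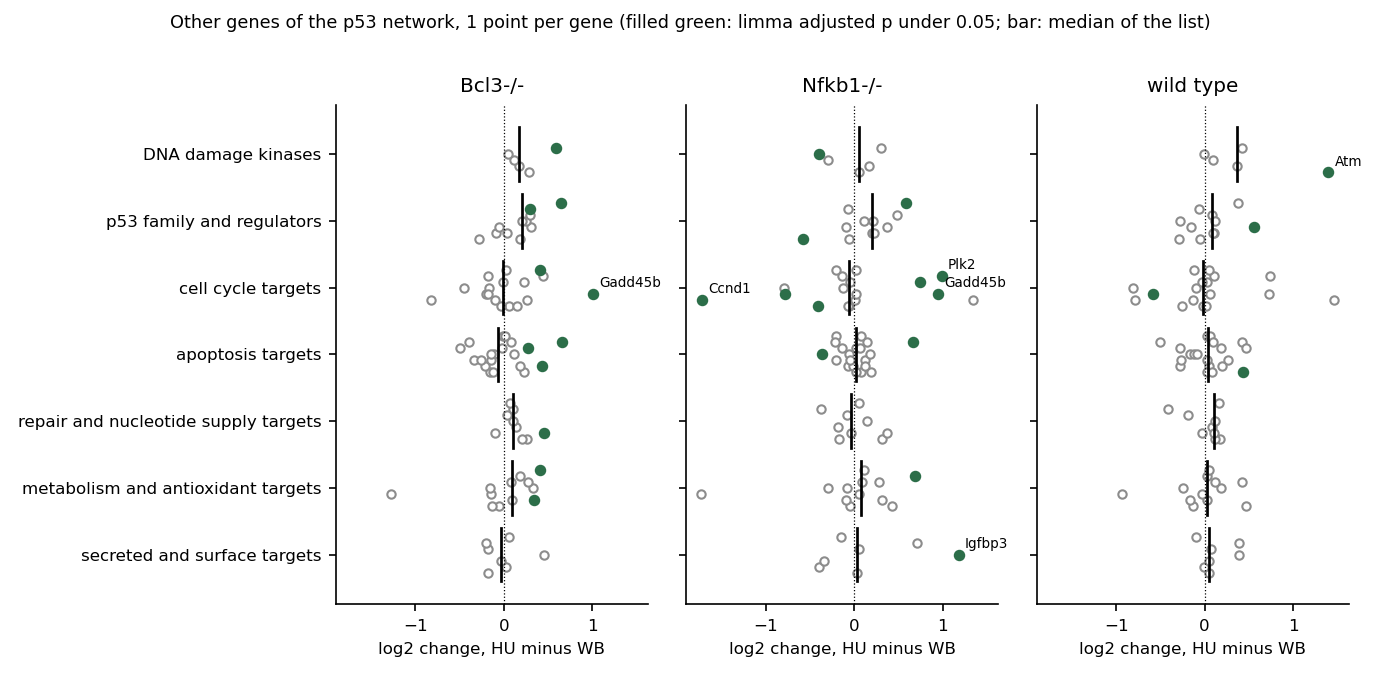
Log2 change, HU minus WB, of the 81 tested genes of the wider p53 network by list (rows) in Bcl3-/-, Nfkb1-/- and wild type muscle (panels), with 1 point per gene; filled green points passed limma's test, black bars are list medians, and called genes with a change above 0.9 in size are named. The list medians lie near 0, the farthest being 0.37 for the 5 DNA damage kinases in wild type muscle, where Atr, Chek2 and Prkdc averaged below 20. The genes that passed in Nfkb1-/- muscle lie on both sides of 0.

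Markers of other cell types differed between HU and WB mice, and their part in the member changes was not tested. The summed intensity of 7 fibroblast and tendon markers (Col1a1, Col3a1, Dcn, Tnmd and others) was 2788 to 4634 in HU and 5357 to 6145 in WB Nfkb1-/- muscle, and 3887 to 4558 in HU and 5187 to 6307 in WB wild type muscle. Of the 7, limma called 3 lower in Nfkb1-/-, 3 in Bcl3-/- and 1 in wild type muscle. The sum of 7 neutrophil markers, of which 2 exceeded 20 on at least 4 of the 16 Nfkb1-/- and wild type arrays, was 63.6 to 145 in HU and 36.8 to 48.8 in WB Nfkb1-/- muscle, and 399 to 888 in HU and 249 to 273 in WB Bcl3-/- muscle. The rise lay mainly in S100a8 and S100a9, with HU means of 33.7 and 37.3 against WB means of 8.75 and 7.87 in Nfkb1-/- muscle. In Bcl3-/- muscle these means were 265 and 202 against 37.9 and 22.3. Ngp, Ltf, Camp, Csf3r and Cxcr2 differed far less between HU and WB mice. In the unloaded Nfkb1-/- mice the neutrophil sum was 69.1 and 63.6 in replicates 2 and 3, in which Sesn1, Trp53inp1 and Sirt1 were highest, against 145 and 117 in replicates 1 and 4, and the macrophage sum was 524 and 555 against 696 and 950. In wild type muscle HU replicate 1 had 114 on the neutrophil sum where the other unloaded mice had 37.3 to 45.0. That array also had the highest sum of 8 satellite cell and regeneration markers, 230 against 110 to 145 in the other unloaded and 91.9 to 159 in the weight bearing wild type mice. The sum of 9 proliferation markers, of which 1 exceeded 20 on at least 4 of the 16 arrays, was 51.2 to 67.4 in HU and 94.6 to 105 in WB Nfkb1-/- muscle, through Aurka alone, which averaged 25.2 in HU and 64.4 in WB mice. Of 4 adipocyte markers 2 were called higher and of 7 endothelial markers 1 was called lower in Nfkb1-/- muscle, and the satellite cell sum was 928 to 1278 in HU and 1319 to 1430 in WB Bcl3-/- muscle. Limma called 1 of these 8 markers higher and none lower there. The lower sum lay mainly in Sdc4 (mean 299 in HU and 535 in WB mice) and Myog (133 and 202). Pax7, Myf5, Myod1, Myh8 and Cdh15 averaged level or higher in HU Bcl3-/- mice. Macrophage marker sums overlapped between HU and WB mice in all 3 genotypes, and no T or B cell marker exceeded 20 on 4 of the 16 arrays.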

How the data were processed

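Gastrocnemius and plantaris RNA was measured on 24 Affymetrix arrays, 4 in each of the 6 groups that the labels give. The authors computed RMA values with quantile normalization in GenePattern and deposited 1 table of linear intensities, of which every value column was used. The labels call the samples biological replicates, and 4 arrays per group limit the precision.

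Probe sets with an intensity above 20 on at least 4 of the 24 arrays were fitted on the log2 scale with limma 3.58.1 in R 4.3.3, 1 mean per group (18 residual and 5.89 prior degrees of freedom), with Benjamini-Hochberg adjustment over all 19294 probe sets. Genes were named from the platform annotation, which listed 20380 probe sets with 1 gene, 691 with several and left 1555 unnamed. Cdkn1a was also tested by exact permutation.

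The members and lists were chosen with earlier results of these data known. Named were all members, for each genotype and direction the 4 called genes of the wider lists with the largest change, the 5 genes most like Cdkn1a, and 2 genes chosen after their values were seen. A gene of the wider lists was represented by its probe set with the highest mean.

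The alternatives were no filter, the filter of the study, a filter within each array set, a fit of only the groups compared, array weights, a variance trend with robust estimation, centring of the array medians, a second quantile normalization, log2 of the intensity plus 16, the methods' t-test with q-values or Benjamini-Hochberg adjustment, the replicate block, and each array left out. Simulated data with known folds were used to test the fit. Promoters from RefSeq were searched on both strands for perfect matches to the p53 decamer motif and the κB consensus, which do not overlap in the members.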

Additional observations from a re-analysis of the deposited data

Results flagged for a closer look

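Among 186 groups of 4 arrays checked over 31 probe sets, 9 held an array that stood apart from its group by Dixon's test, which chance alone gives in about 1 of 20 groups. Of the members, Ccng1 1450016_at was at 963 in weight bearing wild type replicate 3, where the other 3 mice had 889 to 895. Perp was at 8.64 in unloaded wild type replicate 1, where the others had 7.29 to 7.38. Sesn1 1438931_s_at was at 21.2 in weight bearing Nfkb1-/- replicate 2, where the others had 32.4 to 34.5.

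Among the other genes of the network, unloaded wild type replicate 1 stood apart for Gadd45a, at 385 where the others had 31.5 to 45.6, and for Trp53bp1, at 40.9 where the others had 32.1 to 33.3. Atm was at 24.0 in unloaded wild type replicate 2, where the others had 25.4 to 25.7. Mdm4 was at 174 in unloaded Bcl3-/- replicate 4, where the others had 146 to 148. Cdk4 was at 35.9 in weight bearing wild type replicate 4, where the others had 44.5 to 46.5. Ddit4 was at 102 in weight bearing Nfkb1-/- replicate 4, where the others had 461 to 529.

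The response to unloading differed between genotypes for Atm, by −1.35 on the log2 scale for Nfkb1-/- minus wild type and by −1.11 for Bcl3-/- minus wild type (limma adjusted p = 0.034 and 0.037), both against the same 8 wild type arrays. Among the Nfkb1-/- and wild type arrays the Atm probe set exceeded 20 only in unloaded wild type muscle. The Bcl3-/- difference also crosses the array sets, which are on different scales.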

How the results depend on the processing

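Over 170 changes of single probe sets and 5976 comparisons with an alternative, 5696 kept their side of the threshold, 177 lost a call, 103 gained one, none of the called values changed direction, and 90 values that were not called changed sign. With each array left out in turn, the 15 members gave 4 to 8 calls in Nfkb1-/- (7 with all arrays; 4 without HU replicate 3 or WB replicate 4), 1 to 3 in Bcl3-/- (1 with all arrays; 3 without wild type HU replicate 1, and 2 without wild type HU replicate 2, Bcl3-/- HU replicate 4 or WB replicate 3) and 1 to 3 in wild type muscle (2 with all arrays; 1 without HU replicate 3 or 4 or WB replicate 1, 2 or 3). They gave 6 to 9 calls in the mean of the 3 genotypes (7 with all arrays), 0 to 1 for the response of Nfkb1-/- minus wild type (1 without Nfkb1-/- HU replicate 4), 0 to 1 for that of Bcl3-/- minus wild type (1 without wild type HU replicate 1 or Bcl3-/- WB replicate 3), 0 to 0 between the weight bearing groups and 0 to 4 between the unloaded groups of Nfkb1-/- and wild type (0 without Nfkb1-/- HU replicate 3, and 1 without its replicate 2 or wild type HU replicate 1). The wider list gave 9 to 19 calls in Nfkb1-/-, 4 to 12 in Bcl3-/- (4 without HU replicate 3, 5 without HU replicate 1 or 4, 6 without WB replicate 4, and 7 without HU replicate 2 or WB replicate 1), 3 to 8 in wild type (8 without HU replicate 2), 22 to 30 in the mean, and 0 to 1 and 0 to 3 for the response differences of Nfkb1-/- and Bcl3-/- minus wild type (2 without wild type HU replicate 4 and 3 without Bcl3-/- WB replicate 3).

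When only the groups compared were fitted, the members gave 2 calls in Bcl3-/- and 1 in wild type muscle and 0 between the unloaded groups, and the wider list gave 4 in Bcl3-/- and 0 and 0 for the response differences. Array weights gave the members 2 calls in Bcl3-/-, 2 and 2 for the response differences and 6 between the unloaded groups, and the wider list 27 in Nfkb1-/-, 14 in wild type and 2 and 2 for the response differences. With log2 of the intensity plus 16 the members gave 2 calls in Bcl3-/-, 2 for the Bcl3-/- response difference and 1 between the unloaded groups, and the wider list 20 in Bcl3-/- and 5 for that response difference. A filter within each array set gave 5 member calls between the unloaded groups and 3 wider calls for the Bcl3-/- response difference, and the study's filter or a trend with robust variance gave 2 member calls in Bcl3-/- muscle. The methods' t-test with q-values gave the members 3, 1 and 0 calls in Nfkb1-/-, Bcl3-/- and wild type muscle and 0 between the unloaded groups, and the wider list 5, 1 and 0. With Benjamini-Hochberg adjustment that t-test gave the members 1, 0 and 0 calls and 0 between the unloaded groups, and the wider list 1, 0 and 0. Single calls that ended when only the groups compared were fitted were Ccng1 1450017_at and Mdm4 in wild type and Sesn1 1454699_at and Gadd45b in Nfkb1-/- muscle, and those of Bcl2l11 ended in Nfkb1-/- with log2 of the intensity plus 16 and in Bcl3-/- after centring or a second quantile normalization. The cause of these shifts was not tested.

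Over all probe sets, 2196 calls in Nfkb1-/- muscle were 3832 with array weights, 854 with q-values and 307 with the adjusted t-test. The 2007 calls in Bcl3-/- were 1041 with only the groups fitted, 4532 with log2 of the intensity plus 16, 249 and 84. The 766 calls in wild type were 253 with only the groups fitted, 2234 with array weights, 0 and 0. The 34 calls for the Nfkb1-/- response difference (32.4% higher) were 57 after a second quantile normalization (47.4% higher), 58 after centring (22.4%), 104 with a filter within each array set, 270 with array weights, and 20 with only the groups fitted or with the replicate block. The 206 calls for the Bcl3-/- response difference (75.2% higher, 65.2% after centring) were 104 with only the groups fitted, 356 with array weights and 567 with log2 of the intensity plus 16. The 1413 calls between the unloaded groups were 528 with only the groups fitted, 891 with log2 of the intensity plus 16, 59 with q-values and 9 with the adjusted t-test, and the 174 between the weight bearing groups were 83, 8 and 7 under these last 3 settings and 555 with array weights.

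The replicate numbers do not pair the arrays, since 2 of 12 pairs had a correlation of deviations above 0.1 (−0.17 to 0.22). With the replicate block the members gave 2 calls in Bcl3-/- muscle, and no other member or wider count moved by over 1.5 times. The methods' t-test was not run for the mean or the response differences, and the fit of only the groups compared was not run for the mean. Genes near 20 in intensity are limited by background, among them Atm, Perp and Bbc3 on the Nfkb1-/- and wild type arrays.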
